A study of Mus musculus with 32 samples.

Results

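Mitochondria-rich (mt-rich) droplets were the called barcodes of the first sequencing run with 400 to 6200 detected genes and more than 10% mt- UMIs. UMIs are unique molecular identifiers, 1 per counted RNA molecule. The mt- UMIs came from the 13 protein-coding genes of the mitochondrial genome, whose symbols start with mt-. The mt-rich droplets numbered 9562 of 100486 barcodes within the gene limits and of 107853 called barcodes in all. The other 90924 barcodes within the limits, with at most 10% mt- UMIs, are called low-mt droplets. The study grew bone marrow stromal cells of Diversity Outbred mice under osteogenic conditions (BMSC-OBs), released them from the mineralizing cultures with EDTA, collagenase and trypsin, and profiled them by droplet single-cell RNA-seq of 3' ends (10x Chromium, v2 kit). Cells of 77 mice were mixed in 16 pools of 4 or 5 mice each, and each pool was sequenced in 2 runs of the same droplets, named HGYVNCCX2 and HHFFMCCX2. All pools had the same culture and no treatment groups, so the pool served as the replicate and each comparison set mt-rich against low-mt droplets of the same pool. Cells were not traced to single mice here, and a pool mixes outbred genotypes.

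The mitochondrial genome encodes subunits of respiratory complexes I, III and IV and of ATP synthase, and all other subunits are encoded in the nucleus. In droplet data a high mt- share is widely used to set aside damaged cells, in which cytoplasmic mRNA is thought to leak out while mitochondria and nuclei hold on to theirs. Some healthy cells are also rich in mitochondria, among them osteoclasts, the bone-resorbing cells that arise from the monocyte and macrophage lineage and spend much ATP on acid secretion. Cultures of this kind hold osteoblast-lineage cells, which secrete collagen and mineralize it, together with macrophages and other marrow-derived cells.

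Droplets of both groups were split by 1 gene per lineage, with all shares computed without mt- UMIs. The Ibsp class held at least 3% of its UMIs in Ibsp (bone sialoprotein, a matrix protein of mature osteoblasts) and fewer than 2 Tyrobp UMIs. The Tyrobp class held at least 2 UMIs of Tyrobp (an immune-cell signalling adaptor) with Ibsp under its limit, and the rest met both criteria or neither. Of the mt-rich droplets, 1497 were in the Ibsp class, 826 in the Tyrobp class, 24 in both and 7215 in neither. Of the low-mt droplets, 31015 were in the Ibsp class, 15927 in the Tyrobp class, 1765 in both and 42217 in neither.

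The counts that the rule used are given as a description, without tests. The mt-rich share of barcodes within the gene limits ranged from 4.61% in pool 13 to 14.0% in pools 10 and 12, with a mean of 9.69% ± 2.73 (SD, n = 16 pools). Exact binomial 95% intervals for single pools ran from 4.15 to 5.11% in pool 13 and from 13.2 to 14.9% in pool 12, and they cover counting error only. The median mt- share of the members was 16.9%, the 90th percentile 37.8% and the highest value 93.1%, and 804 members exceeded 40%. Just inside the limit, at 10 to 11% mt- UMIs, 1093 barcodes had a median of 3476 nuclear-encoded UMIs, 405 mt- UMIs and 1593 genes. Just outside it, at 9 to 10%, 1436 barcodes had medians of 3967.5, 412 and 1735, so no gap separated the groups at the limit. A further 3623 called barcodes passed 10% mt- UMIs but had under 400 genes, and 6 had over 6200.

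The high share combined more mt- UMIs with fewer nuclear-encoded UMIs, in proportions that differed between the classes. Over all members the median droplet held 1952 nuclear-encoded UMIs, against 8671 in low-mt droplets, and 537.5 mt- UMIs against 292. In the Ibsp class the medians were 3184 against 15363 nuclear-encoded and 716 against 381 mt- UMIs. In the Tyrobp class they were 3231.5 against 5385 and 586 against 212, and in the neither class 1657 against 7575 and 492 against 268. The median of nuclear-encoded UMIs was lower in the members in 15 of 16 pools in each of these 3 classes, and the median of mt- UMIs was higher in 16 of 16.

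**Figure D1:**
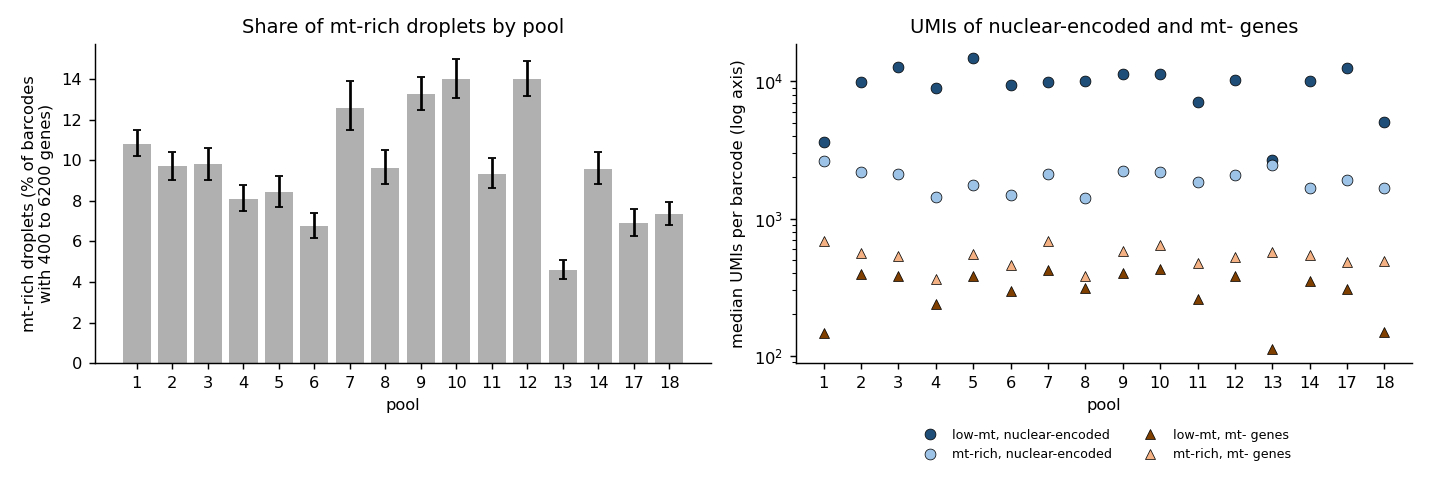
Left, percentage of barcodes with 400 to 6200 genes that were mt-rich in each of the 16 pools, as bars with exact binomial 95% intervals. Right, median UMIs per barcode on a log axis, with circles for nuclear-encoded genes and triangles for mt- genes, dark for low-mt and light for mt-rich droplets. The mt-rich share lay between 4.61% and 14.0%, and in every pool the mt-rich droplets held more mt- UMIs and fewer nuclear-encoded UMIs.

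Pools 1 and 13 stood apart by shallow low-mt droplets, with medians of 3587 and 2664 nuclear-encoded UMIs. Total UMIs per pool ranged from 53990642 to 100777353, and the median of nuclear-encoded UMIs in low-mt droplets from 2664 in pool 13 to 14661 in pool 5. In members it ranged only from 1423 to 2626. The 2 runs gave nearly the same members, since 9542 of the 9562 were also called in the repeat run and 9192 (96.1%) met the rule there, with a median absolute difference in mt- share of 0.524 percentage points. The barcode sequence of 286 members (2.99%) was also called in another pool, against 2.82% of low-mt droplets. No doublet caller was run, and the 24 members in both classes were left out of the comparisons by class.

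Among the 13 mt- genes the makeup of the mt- UMIs was close in both groups, again as a description. In the neither class mt-Atp6, a subunit of ATP synthase, took 19.7% ± 1.21 of mt- UMIs in members and 18.3% ± 1.16 in low-mt droplets (SD, n = 16 pools), and was higher in 16 of 16 pools. In the Ibsp class the shares were 18.5% ± 1.37 and 16.1% ± 1.35, likewise higher in 16 of 16. mt-Co1, a catalytic subunit of complex IV, took 16.7% ± 2.65 and 16.4% ± 2.85 in the neither class, which is within the spread between pools. mt-Cytb, the cytochrome b of complex III, took 12.3% ± 1.08 against 13.4% ± 1.30 there and was lower in 16 of 16 pools.

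Fewer members reached the limit of a lineage gene. The Ibsp class made up 16.4% ± 6.31 of members and 34.2% ± 11.7 of low-mt droplets (SD, n = 16 pools). The difference was -17.8 percentage points, lower in 16 of 16 pools. The Tyrobp class made up 8.05% ± 4.25 and 17.9% ± 8.63 (higher in 1 of 16 pools), and the neither class 75.3% ± 6.53 and 46.1% ± 7.30 (higher in 16 of 16). The classes are part of the rule that divided the droplets, so these shares are given without a test. Since members were shallower, each droplet was also thinned to 400 nuclear-encoded UMIs, which left none out. The differences were then -17.9 points for Ibsp, -2.86 points for Tyrobp from 1 UMI (6.25% against 9.12%) and 21.1 points for neither. The Tyrobp value changed both the depth and the UMI limit of the class, so the part of each in its smaller difference was not tested.

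In the Ibsp class, mt-rich droplets held relatively more of the nuclear RNA Malat1 and of matrix mRNA. They held relatively less of the short mRNAs of ribosomes, respiration and cytoplasm. Nuclear-encoded UMIs were summed per pool and group and compared within pools by edgeR's quasi-likelihood test, which called 5530 of 11341 genes (48.8%) at a Benjamini-Hochberg adjusted p of 0.05, of which 2726 were higher (24%) and 2804 lower (24.7%) in members. These calls are relative to the other genes, since each library was scaled by the trimmed mean of M-values (TMM). With raw totals the median change of all genes moved from 0.03 to 0.32 on the log2 scale, and 5048 genes were higher and 1479 lower. Levels below are counts per 1000000 nuclear-encoded UMIs (CPM) on raw totals, given as lowest, median and highest of the pools, while log2 fold changes are on the TMM scale with their SE and edgeR adjusted p.

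Nuclear-retained RNAs rose in the Ibsp class, with 19 of 22 tested genes of the list higher and none lower, at a median log2 fold change of 0.43 beside 0.03 for all genes tested. Summed over the list they took 4.35% ± 0.51 of nuclear-encoded UMIs in members and 1.63% ± 0.30 in low-mt droplets (SD, n = 16). Malat1 alone made up most of this sum in both groups. Malat1, a long noncoding RNA of nuclear speckles, was at 29480, 38260 and 47150 CPM in members and at 8479, 13250 and 18490 CPM in low-mt droplets. The pools' ranges did not overlap, which held for 1.41% of all genes tested in this class, and the log2 fold change was 1.23 ± 0.07 (adjusted p = 9.91e-22). Kcnq1ot1, an imprinted antisense noncoding RNA, was at 110.0, 191.2 and 284.6 CPM against 36.7, 62.7 and 74.8, also without overlap. Neat1, the scaffold RNA of paraspeckles, was higher by 0.76 ± 0.08 in 16 of 16 pools, although its ranges overlapped. Ogt, which encodes the O-GlcNAc transferase, was among the 10 genes of largest rise, with a log2 fold change of 1.31 ± 0.08.

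The largest rises in the full comparison were in rows that collect ribosomal RNA-like reads, and they were smaller with depth matched. Gm42418 (GRCm38 chr17:39846958-39848788, plus strand) stood at 4728, 21820 and 50060 CPM in members and at 1165, 3871 and 6221 CPM in low-mt droplets. It was higher in 16 of 16 pools by a log2 fold change of 2.38 ± 0.10 (adjusted p = 7.55e-29), although the ranges overlapped, and by 0.95 with depth matched. Gm26917 (chr17:39843013-39846341, plus strand), its neighbour, did not overlap between groups and rose by 2.20 ± 0.08, or by 1.53 with depth matched. AY036118 (chr17:39847113-39848035, minus strand) lies within Gm42418 on the other strand, so the share of reads between them is uncertain. It was higher by 1.39 ± 0.07, but the difference was -0.02 against low-mt droplets matched for depth (edgeR adjusted p = 0.913). Lars2 (chr9:123366927-123462666, plus strand), the gene of the mitochondrial leucyl-tRNA synthetase, rose by 2.27 ± 0.09, or by 1.04 with depth matched. The 5 rows together took 2.53% ± 1.33 of nuclear-encoded UMIs in members and 0.39% ± 0.18 in low-mt droplets.

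mRNAs of the cytosolic ribosome fell as a block. All 83 tested genes of its proteins were lower, with a median log2 fold change of -0.98, and their summed share was 11.7% ± 1.78 in members and 18.9% ± 1.59 in low-mt droplets. Rpl9, a protein of the large subunit, was at 623.3, 1068 and 1633 CPM in members and at 2012, 2517 and 3103 CPM in low-mt droplets, without overlap, and fell by 1.58 ± 0.07 on the log2 scale (adjusted p = 4.19e-27). Rps15a of the small subunit fell by 1.51 ± 0.07, also without overlap. Translation factors were lower in 16 of 20 genes. Cytosolic and actin mRNAs were lower in 26 of 26, among them Ubb (polyubiquitin) with a log2 fold change of -1.18, and Actb (beta-actin) with -0.53.

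The nuclear-encoded genes of the respiratory chain moved opposite to the mt- share that chose the droplets. In the Ibsp class 77 of 82 were lower and none higher, at a median of -0.74, and their summed share was 1.63% ± 0.14 in members and 2.31% ± 0.20 in low-mt droplets, lower in 16 of 16 pools. Ndufb5, a subunit of complex I, was at 67.8, 136.1 and 189.6 CPM against 232.3, 271.3 and 296.4, without overlap (log2 fold change -1.27 ± 0.07). Atp5e, the epsilon subunit of ATP synthase, fell by 1.22 ± 0.08. Genes of the mitochondrial ribosome were lower in 65 of 77. Mgst3, a microsomal glutathione transferase, had the lowest value of all genes at 50 CPM or more, with a log2 fold change of -1.72 ± 0.08.

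Collagens and secreted matrix went up on balance in the Ibsp class, with 18 of 27 genes higher and 6 lower. Their summed share was 13.3% ± 1.64 in members and 10.5% ± 1.11 in low-mt droplets, higher in 16 of 16 pools. Col1a1, the main collagen of bone, was at 43670, 57810 and 78810 CPM against 23240, 39250 and 43300, without overlap, and its TMM-scaled log2 fold change was 0.35 ± 0.07 (adjusted p = 8.13e-05). With members above 20% mt- UMIs it was 0.11 and missed the threshold. Col12a1 was higher by 0.93 ± 0.08, and Tnc (tenascin C, a glycoprotein of the matrix) by 1.25 ± 0.09. Sparc (osteonectin, a small collagen-binding protein) went the other way, with -0.67 ± 0.07 in 16 of 16 pools.

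The lists of stress genes did not move together in the Ibsp class, so these droplets are named here by their mt- share and not as stressed. Targets of the integrated stress response and ATF4 were higher in 5 and lower in 11 of 24 genes, and the unfolded protein response of the endoplasmic reticulum was higher in 5 and lower in 5 of 19. With depth matched the unfolded protein response was higher in 10 and lower in 1 of 18 (median 0.23), and its summed share in the full comparison was 0.710% ± 0.146 against 0.582% ± 0.111, higher in 15 of 16 pools. Heat shock genes were higher in 1 and lower in 8 of 15, immediate early genes higher in 5 and lower in 14 of 24, and p53 targets higher in 7 and lower in 7 of 24. Ddit3, the stress-induced factor CHOP, was higher by 0.26 ± 0.08 (adjusted p = 0.00362), but missed the threshold in the repeat run (0.13) and with depth matched (0.07). Hspa5, the chaperone BiP, was higher by 0.36 ± 0.07, while Atf3 (-1.03 ± 0.08), Fos (-0.78 ± 0.07) and Hsp90ab1 (-0.76 ± 0.06) were lower. With raw totals the medians of 4 of these lists turned positive (ATF4 targets 0.14 with 11 higher and 4 lower, unfolded protein response 0.26, immediate early 0.08, p53 targets 0.26), all below the 0.32 of all genes, so the direction of these lists depends on the scaling. Beside these lists, the NRF2 antioxidant and metal response was higher in 1 and lower in 12 of 20 genes on the TMM scale. Hypoxia and glycolysis genes were higher in 2 and lower in 16 of 20. With depth matched the 2 lists were higher in 0 and lower in 10 of 15, and higher in 1 and lower in 13 of 19. The summed share of each was higher in members in 0 of 16 pools.

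**Figure D2:**
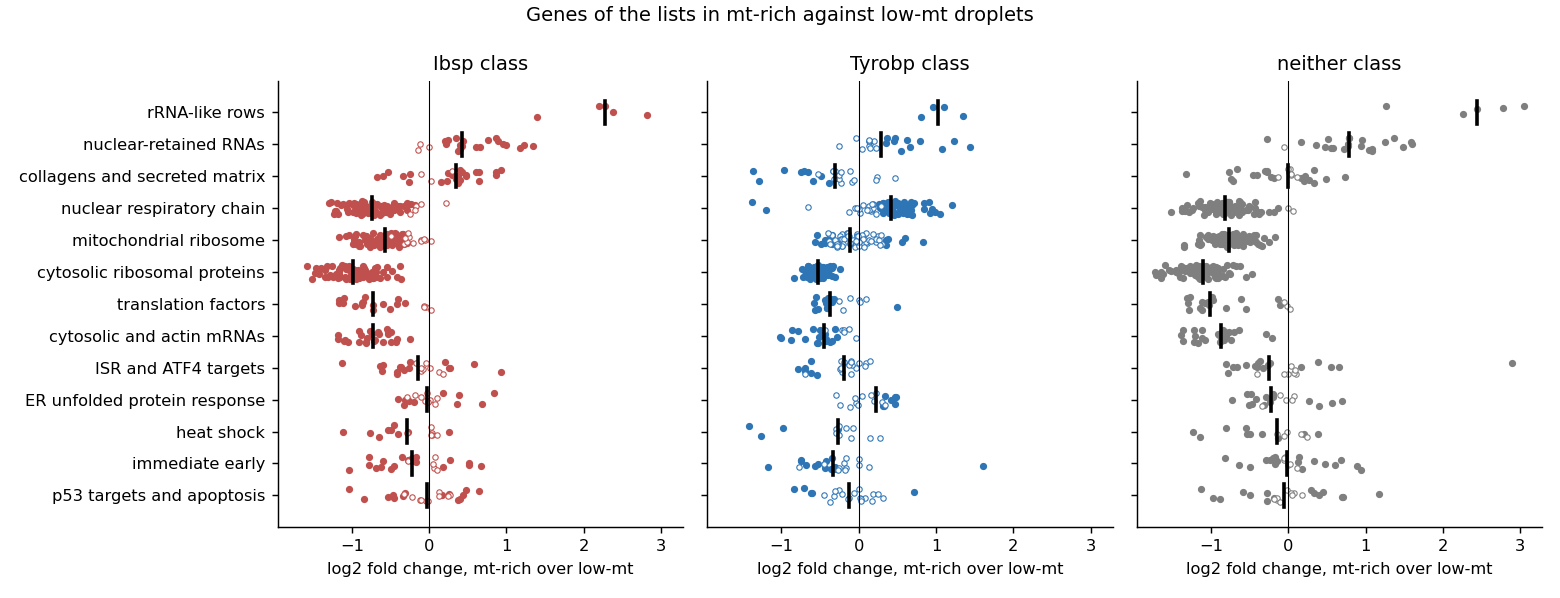
Each point is a gene, placed at its edgeR log2 fold change of mt-rich over low-mt droplets (TMM scale) on a horizontal axis shared by the 3 class panels. Filled points passed an adjusted p of 0.05, open points did not, and black bars are list medians. Cytosolic ribosomal protein genes lie left of 0 in each class, nuclear-retained RNAs mostly right of 0, and the nuclear respiratory chain lies left of 0 in the Ibsp and neither classes and mostly right of 0 in the Tyrobp class.

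Depth differed so much that members were also set against low-mt droplets of the same pool, class and nuclear-encoded UMI count. This used 1458 of the 1497 Ibsp members, tested 4606 genes and called 2123, 1040 higher and 1083 lower. Of the genes called in the full comparison and tested again, 57.0% were called in the same direction and 0.959% in the opposite one. Nuclear-retained RNAs (19 of 21 higher, median 0.61), cytosolic ribosomal proteins (78 of 83 lower, -0.56), the respiratory chain (55 of 77 lower, 1 higher, -0.37) and matrix genes (17 of 25 higher, 0.45) held their direction. The medians of the ribosomal and respiratory lists were smaller in size than in the full comparison, and those of the nuclear-retained and matrix lists were larger. Of the rRNA-like rows 3 of 4 were higher, with a smaller median of 1.00. Macrophage and granulocyte markers did not hold their direction. Macrophage markers were higher in 10 of 12 genes in the full comparison (summed share 0.039% ± 0.016 against 0.020% ± 0.015) and higher in none and lower in 4 of 6 after matching. The macrophage list includes Tyrobp, which the class rule limits to fewer than 2 UMIs. Granulocyte markers were higher in 4 and lower in 1 of 7 before and lower in 2 of 2 after. The part of free RNA from other cells in these values was not tested.

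The Tyrobp class gave a different picture, led by genes of osteoclasts. The comparison used 15 pools, because pool 17 had only 10 such members, and edgeR called 2459 of 9256 genes (26.6%), of which 1105 were higher (11.9%) and 1354 lower (14.6%). With raw totals 1712 were higher and 822 lower. Of the 8 genes of the osteoclast marker list, Ctsk, Acp5, Mmp9 and Atp6v0d2 were higher by 2.83, 3.69, 4.92 and 1.51 on the log2 scale. Dcstamp, Ocstamp, Calcr and Oscar were also called higher, but their medians in low-mt droplets were only 0.729 to 5.00 CPM and they passed the count filter through the members, so their count is no support by itself. With no filter on low counts the same 8 genes were called higher. The summed share of the list was 1.63% ± 0.99 of nuclear-encoded UMIs in members (0.242% to 3.47% over pools) and 0.134% ± 0.075 in low-mt droplets (0.048% to 0.319%), higher in 15 of 15 pools.

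Mmp9, a matrix metalloproteinase abundant in osteoclasts, was at 411.6, 3030 and 8692 CPM in members and at 24.2, 49.9 and 299.5 CPM in low-mt droplets. The ranges did not overlap, which held for 0.13% of genes tested in this class, and the log2 fold change was 4.92 ± 0.22 (adjusted p = 2.82e-16). Calcr, the calcitonin receptor, was at 5.88, 48.3 and 405.7 CPM against 0.0, 0.729 and 14.5. Ocstamp and Dcstamp, needed for the fusion of osteoclast precursors, were higher by 4.54 ± 0.27 and 4.24 ± 0.21, each in 13 of 15 pools, and were at 0 in at least 1 pool of members. Oscar, an immunoglobulin-like receptor of osteoclasts, was higher by 5.36 ± 0.34. The sizes for these last 4 genes rest on near-zero levels in low-mt droplets. Itgb3, the beta3 chain of the vitronectin receptor by which osteoclasts attach to bone, was at 17.6, 124.6 and 530.5 CPM against 3.52, 7.60 and 20.6 (3.83 ± 0.22). Slc9b2, a sodium/proton exchanger, and Mt3, a metallothionein, rose by 4.50 ± 0.22 and 5.25 ± 0.32 in 15 of 15 pools.

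Here the nuclear respiratory chain rose with the mt- share. Of 79 genes, 59 were higher and 2 lower, with a median of 0.42, and the summed share was 3.44% ± 0.81 in members against 2.30% ± 0.20 (higher in 14 of 15 pools). Sdha, the catalytic subunit of complex II, was at 84.0, 230.9 and 353.7 CPM in members and between 83.3 and 126.5 CPM in low-mt droplets, higher in 15 of 15 pools (log2 fold change 0.99 ± 0.12, adjusted p = 1.11e-07). Cyc1 (cytochrome c1 of complex III) and Ndufa4 (a subunit of complex IV) were higher by 1.05 ± 0.12 and 0.95 ± 0.12. Ppargc1b (PGC-1beta, a coactivator of mitochondrial biogenesis in osteoclasts) was at 0.0, 59.1 and 124.8 CPM against 1.53, 3.35 and 7.88, higher by 3.72 ± 0.25 in 13 of 15 pools. This size too rests on near-zero levels in low-mt droplets. Mitochondrial ribosome genes did not follow as a list, with 6 higher and 10 lower of 77.

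Granulocyte genes made up most of the largest falls in the Tyrobp class. Of 13 tested markers of granulocytes 8 were lower, and the 1 higher was Mmp9, which also belongs to the osteoclast list. S100a9, a calprotectin subunit of neutrophils, was at 0.0, 206.9 and 10830 CPM in members and at 135.4, 5993 and 23670 CPM in low-mt droplets, lower in 15 of 15 pools by a log2 fold change of -3.84 ± 0.54. The wide ranges show how unevenly the pools held such cells. Camp (cathelicidin, -3.40 ± 0.42) and Ltf (lactoferrin of secondary granules, -3.29 ± 0.28) moved likewise. Markers of monocytes and dendritic cells were lower in 6 of 7 genes. The macrophage list, which includes the class gene Tyrobp, was split, with 3 higher and 3 lower of 13. Csf1r, the receptor for the macrophage growth factor M-CSF, was among the higher ones (0.80 ± 0.10).

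Several lists moved in the same direction as in the Ibsp class. Cytosolic ribosomal proteins were lower in 83 of 83 genes at a median of -0.52, nuclear-retained RNAs higher in 11 of 22 and lower in none at 0.29, and 4 of 4 tested rRNA-like rows higher at 1.03. Malat1 was at 12280, 15040 and 28150 CPM against 5052, 6909 and 12130, without overlap, and higher by 1.08 ± 0.11, which was not called different from the Ibsp class (edgeR interaction, difference 0.27, adjusted p = 0.112). Rps20, a protein of the small ribosomal subunit, had -0.73 ± 0.12 but was higher in 2 of 15 pools. Of the stress lists, the unfolded protein response had 7 higher and none lower of 19, with Hspa5 at 0.42 ± 0.09, immediate early genes 1 higher and 12 lower of 24, and ATF4 targets none higher and 6 lower of 23. The 1 higher immediate early gene was Fosl2, a Fos family factor (1.61 ± 0.12), while Atf3 was lower without overlap (-1.17 ± 0.11).

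With depth matched, 820 of the 826 Tyrobp members were used, and 958 of 2807 genes were called, 490 higher and 468 lower. Of the 2459 genes called in the full comparison 1252 were tested again. Of these, 847 were called in the same direction and none in the opposite one. Of the 8 osteoclast genes 4 were abundant enough to be tested, and all 4 were higher (median 3.67). The count filter can be met by the members alone, so this count is no support by itself. The respiratory chain was higher in 61 of 75 and lower in none.

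Osteoclast-marked droplets, those with a UMI of at least 4 of the 8 markers, were then counted in both groups, a step added after the osteoclast genes had been seen. They made up 2.02% ± 2.61 of members and 0.544% ± 0.837 of low-mt droplets, as means over 16 pools. The share was higher among members in 14 of 16 pools, which is given without a test because the same genes had prompted the count. Without pool 1, which held 94 of the 217 osteoclast-marked members, it was 1.48% against 0.348%. In the Tyrobp class 180 of 826 members and 373 of 15927 low-mt droplets were osteoclast-marked, so most members of that class were not. The erythroid, megakaryocyte and endothelial lists marked only 3, 20 and 97 droplets and were left out here. Each of the other 12 marker lists that were compared had a lower mean share in members than in low-mt droplets. Of these, macrophage-marked droplets made up 13.9% ± 5.05 and 19.4% ± 8.51. A droplet shows more markers the deeper it is, and members were shallower.

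Read the other way, 217 of 792 osteoclast-marked droplets were mt-rich, which is 27.4% (exact binomial 95% interval 24.3 to 30.6%, for counting error only). Of these 792 droplets 361 came from pool 1. Over all barcodes within the limits the fraction was 9.52%. The fraction was 16.1% with none of the markers (median 2814 nuclear-encoded UMIs), 5.87% with 1, 3.36% with 2, 12.6% with 4 markers and 59.0% (47.7 to 69.7%) with all 8. Of the 10 pools with at least 20 osteoclast-marked droplets, 9 had a higher fraction than the pool as a whole, and the range was 6.45% in pool 6 to 59.1% in pool 4. Over all pools osteoclast-marked members and their low-mt counterparts had medians of 7647 and 8382 nuclear-encoded UMIs and of 1455 and 418 mt- UMIs. Within pools the order of depth varied, with 9877 against 4827 nuclear-encoded UMIs in pool 1, 6603 against 10048 in pool 2 and 5441 against 4459 in pool 13. Among the other cell types with at least 20 marked droplets the fraction was at most 8.25% (endothelial, 8 of 97), with 8.01% for osteoblast-marked droplets. It was 0 of 132 with Schwann-like glial markers, where the exact binomial 95% interval reached 2.76%.

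**Figure D3:**
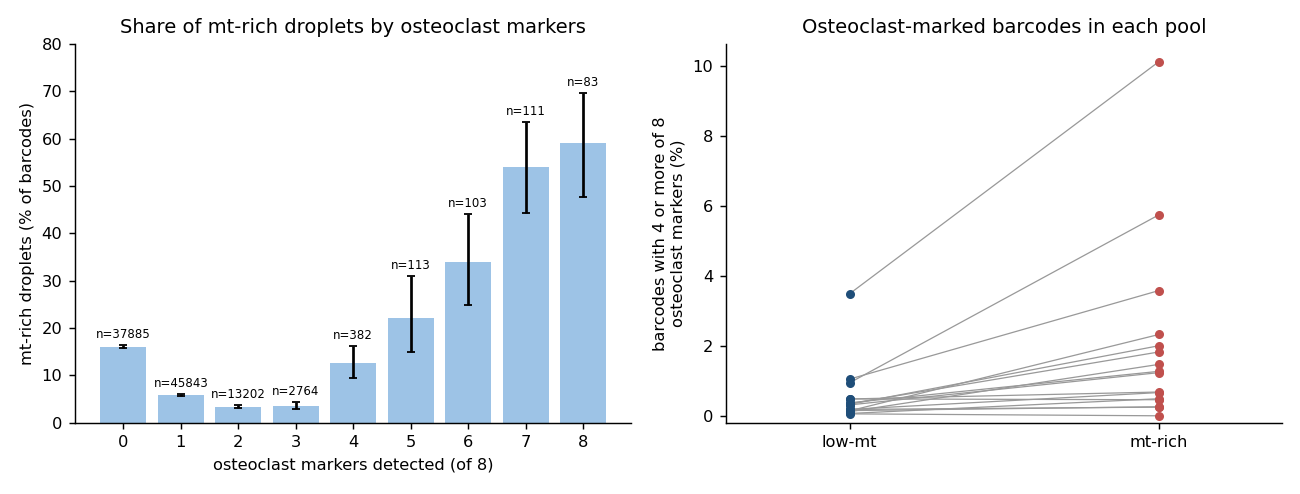
Left, percentage of barcodes within the gene limits that were mt-rich, by the number of the 8 osteoclast markers with a UMI, with exact binomial 95% intervals and the number of barcodes above each bar. Right, percentage of low-mt and of mt-rich droplets with 4 or more markers, with 1 line for each of the 16 pools. The mt-rich fraction was 16.1% with no marker, 3.36% with 2 and 59.0% with 8, and 14 of 16 lines rise.

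The rise of the respiratory chain in the Tyrobp class turned to a fall when osteoclast-marked droplets were left out of both groups. Then edgeR called 1545 of 9837 genes in 13 pools, 496 higher and 1049 lower. The chain was higher in none and lower in 66 of 79 genes at a median of -0.50. Cytosolic ribosomal proteins were then lower in 80 of 83, nuclear-retained RNAs higher in 10 of 22 and rRNA-like rows higher in 4 of 4. Granulocyte markers were still lower in 8 of 13. Of the osteoclast list 4 genes stayed testable, of which none was higher and 1 lower, as leaving out these droplets by the same genes implies.

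Within osteoclast-marked droplets, 3 pools had at least 20 in both groups, and their values are given without a test. The respiratory chain took 6.14% of nuclear-encoded UMIs in members and 3.90% in low-mt droplets of pool 1, 6.41% and 3.99% in pool 2, and 4.73% and 2.70% in pool 13. The osteoclast markers took 3.68% and 1.43%, 3.72% and 1.39%, and 3.97% and 0.916% in the same order. Cytosolic ribosomal proteins took 11.6% and 15.1%, 12.4% and 16.3%, and 17.1% and 20.7%. Macrophage markers took 0.802% and 1.68%, 0.875% and 1.39%, and 0.631% and 0.863%. The mt-rich droplets among them thus had a larger share of osteoclast and respiratory genes and a smaller share of macrophage markers in each of the 3 pools. Whether the 2 groups held the same mix of cells was not tested.

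The difference between the Ibsp and Tyrobp classes was itself tested, as an interaction over 15 pools. edgeR called 2431 of 10261 genes (23.7%), 1407 with a more positive effect in the Ibsp class (13.7%) and 1024 with a more negative one (9.98%). The direction of this split was not stable. Without pool 1 it turned, with 722 more positive and 1221 more negative. It also turned in the repeat run (1001 and 1475) and against low-mt droplets of at most 5% mt- UMIs (991 and 1397). The same held with depth matched (183 and 365), with at least 50 droplets per sum (309 and 528) and without osteoclast-marked droplets (168 and 260). Of 80 respiratory genes 75 had a more negative effect in the Ibsp class and none a more positive one, with a median difference of -1.04 beside 0.13 for all genes. Of the genes called in both classes and in the difference, 295 of 575 moved in opposite directions, and 206 of these were lower in the Ibsp and higher in the Tyrobp class, 57 of them respiratory. Matrix genes differed the other way, with 21 of 27 more positive in the Ibsp class. Without osteoclast-marked droplets 428 genes were called, and the respiratory chain was then lower in the Tyrobp class too, as given above.

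In droplets of neither class, 75.5% of the members, nuclear-retained RNAs were again mostly higher and ribosomal and respiratory genes lower. In them edgeR called 9128 of 12437 genes (73.4%), 4905 higher (39.4%) and 4223 lower (34%), and with raw totals 7285 and 2329. Nuclear-retained RNAs were higher in 21 and lower in 1 of 23 genes at a median of 0.78, and took 4.94% ± 1.07 against 1.42% ± 0.23. Malat1 alone made up most of that share in both groups. The rRNA-like rows took 4.46% ± 2.20 against 0.541% ± 0.288. Cytosolic ribosomal proteins were lower in 83 of 83 at -1.10 and took 13.1% ± 1.29 against 22.8% ± 2.87. Respiratory genes were lower in 78 of 80 at -0.82, and mitochondrial ribosome genes in 77 of 77 at -0.76. Of 27 collagen and secreted matrix genes 8 were higher and 12 lower, while their summed share was 4.63% ± 0.97 in members and 3.45% ± 0.59 in low-mt droplets, higher in 16 of 16 pools.

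Malat1 was at 27880, 43790 and 59510 CPM in members of the neither class and at 8150, 11520 and 15360 CPM in low-mt droplets, without overlap (7.42% of genes tested), and higher by 1.59 ± 0.08 (adjusted p = 9.36e-16). Gm26917 had the largest rise, 3.05 ± 0.14, at 303.4, 907.2 and 2216 CPM against 53.9, 81.5 and 160.1, and rose by 1.70 with depth matched. Atp5c1, the gamma subunit of ATP synthase, was at 111.3, 176.9 and 235.6 CPM against 334.9, 367.8 and 395.9, without overlap (-1.37 ± 0.07). Gapdh, a glycolytic enzyme, was lower by 1.64 ± 0.08 on the log2 scale, and Vim (vimentin) by 1.39 ± 0.07. With depth matched the differences were -0.80 for Atp5c1, -0.91 for Gapdh and -0.74 for Vim, and 1.55 for Malat1. Col1a1 was higher in 16 of 16 pools (0.74 ± 0.08). Of the stress lists, ATF4 targets were higher in 5 and lower in 12 of 24 genes, heat shock in 2 and 8 of 15, immediate early genes in 9 and 9 of 24, and p53 targets in 7 and 8 of 24. The unfolded protein response was higher in 4 and lower in 11 of 20, but higher in 10 and lower in 2 of 19 with depth matched. On raw totals the summed share was higher in members in 15 of 16 pools for the unfolded protein response and for ATF4 targets, and in 16 of 16 for immediate early genes. Ddit3 was at 49.9, 176.5 and 307.9 CPM against 48.3, 132.9 and 187.0 (0.17 ± 0.07, adjusted p = 0.0465), and missed the threshold in the repeat run (0.16), without pool 13 (0.09) and with depth matched (0.04).

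Macrophage genes also rose in the neither class, against low-mt droplets of greater depth. All 13 macrophage markers were higher (median 1.88), with a summed share of 0.242% ± 0.094 against 0.058% ± 0.022. Tyrobp, which the class rule limits to fewer than 2 UMIs, is among the 13, so its value was shaped by the rule. C1qa, a complement subunit made by macrophages, was at 157.3, 227.3 and 656.4 CPM against 18.8, 34.5 and 94.6, without overlap (2.46 ± 0.13). With 7087 members matched for depth, 5860 of 9290 genes were called, 2849 higher and 3011 lower. Of the calls of the full comparison that were tested again, 61.2% were called in the same direction and 7.78% in the opposite one. Of the macrophage markers none of the 13 was higher and 8 were lower (median -0.56), and C1qa was at -0.02 (adjusted p = 0.928). Mrc1, the mannose receptor, went from 2.71 ± 0.11 to 0.28 (adjusted p = 0.0734). A shallow macrophage has a smaller chance of showing 2 Tyrobp UMIs, and the class was not redefined here. The 5 tested genes of the B-cell marker list were lower in the full comparison, with 1 of 2 lower after matching, and Jchain, the joining chain of secreted antibody, was at -3.61 ± 0.21 before it. In contrast, nuclear-retained RNAs (20 of 22 higher), rRNA-like rows (5 of 5 higher), cytosolic ribosomal proteins (81 of 83 lower) and the respiratory chain (69 of 79 lower) held after matching, and matrix genes were then 17 higher and 2 lower of 27.

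With all droplets of a pool summed, whatever their class, 9636 of 13863 genes were called (69.5%), 5126 higher (37%) and 4510 lower (32.5%), and the ranges of 855 (6.17%) did not overlap. With raw totals 8893 were higher and 1946 lower. This comparison also carries the difference in class shares, so genes are described by class only.

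Over bands of the mt- share, cytosolic ribosomal proteins and nuclear-retained RNAs changed mostly above 5% mt- UMIs in the Ibsp and neither classes. The share of cytosolic ribosomal proteins in the neither class was 23.6% ± 4.27 at 0 to 2% mt- UMIs, 20.7% ± 1.45 at 5 to 10%, 14.9% ± 1.37 at 10 to 15%, 11.5% ± 1.66 at 15 to 25%, 9.78% ± 0.81 at 25 to 40% and 9.68% ± 1.84 above 40% (SD over 14 to 16 pools). Nuclear-retained RNAs took 1.38% ± 0.24, 1.63% ± 0.35, 3.39% ± 0.80, 5.87% ± 1.36, 8.48% ± 2.03 and 8.78% ± 2.58 in the same bands. For both lists the means of the last 2 bands lay within the spread between pools. In the Tyrobp class the ribosomal share was 14.8% ± 3.14 at 0 to 2%, 18.7% ± 2.14 at 2 to 5% and 19.3% ± 2.57 at 5 to 10%. It was 14.9% ± 2.71 at 10 to 15% there. In the Tyrobp class the osteoclast markers took 0.140% ± 0.160 at 0 to 2%, 0.090% ± 0.040 at 2 to 5%, 0.241% ± 0.240 at 5 to 10%, 1.49% ± 1.07 at 10 to 15% and 2.34% ± 1.19 at 15 to 25%, the last from 4 pools. These bands were cut by the measure that chose the members and carry no test. Malat1 was not taken out of the sums of nuclear-retained RNAs.

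**Figure D4:**
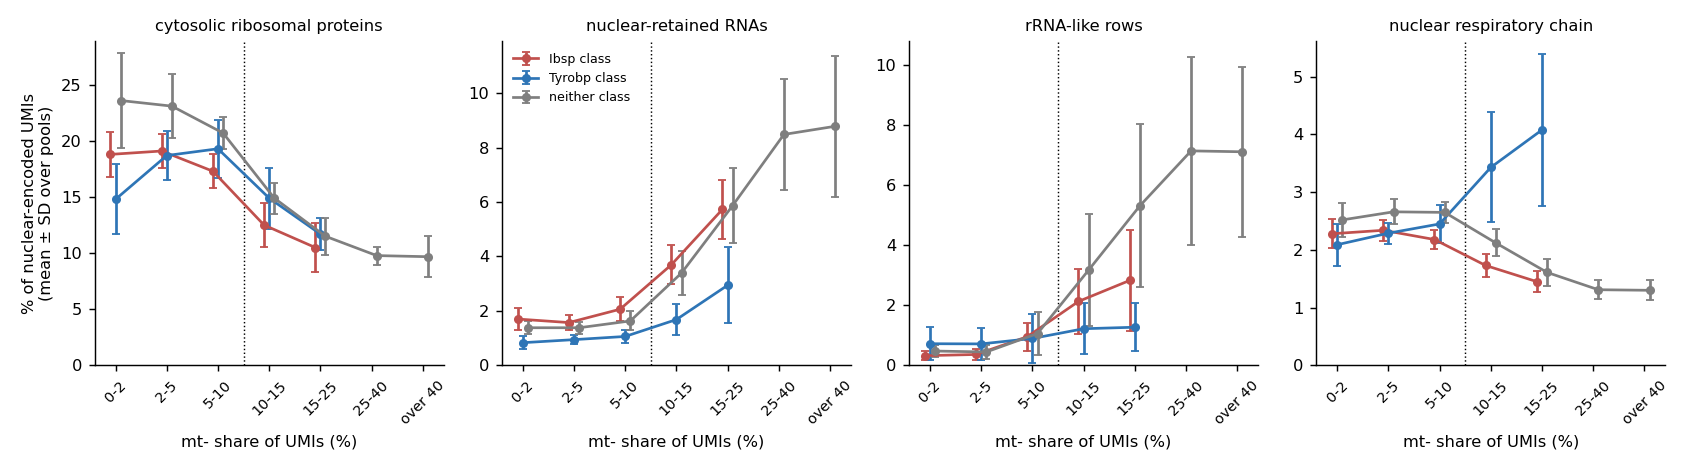
Percentage of nuclear-encoded UMIs in 4 gene lists (mean ± SD over pools with at least 20 barcodes) by band of the mt- share of all UMIs, for the 3 classes, with a dotted line at the 10% limit. Cytosolic ribosomal proteins fall to 9.68% in the neither class above 40% mt- UMIs, nuclear-retained RNAs rise to 8.78%, and the nuclear respiratory chain falls in the Ibsp and neither classes but reaches 4.08% in the Tyrobp class at 15 to 25%.

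The change of a gene went with the length of its transcript. Genes were put in 5 equal groups by their longest annotated transcript (GENCODE M21), which was found for 99.9% of tested genes. In the Ibsp class the median log2 fold change was -0.49 in the shortest group (median length 1391 bases) and 0.37 in the longest (6907 bases). In the neither class it went from -0.57 to 0.47, and in the Tyrobp class from -0.25 to 0.14. Against depth-matched droplets the medians were -0.30 and 0.29, -0.39 and 0.33, and -0.16 and 0.18. Without the ribosomal and respiratory lists the Ibsp values were -0.47 and 0.37. Genes are not independent replicates, and these medians are a description of the fits.

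**Figure D5:**
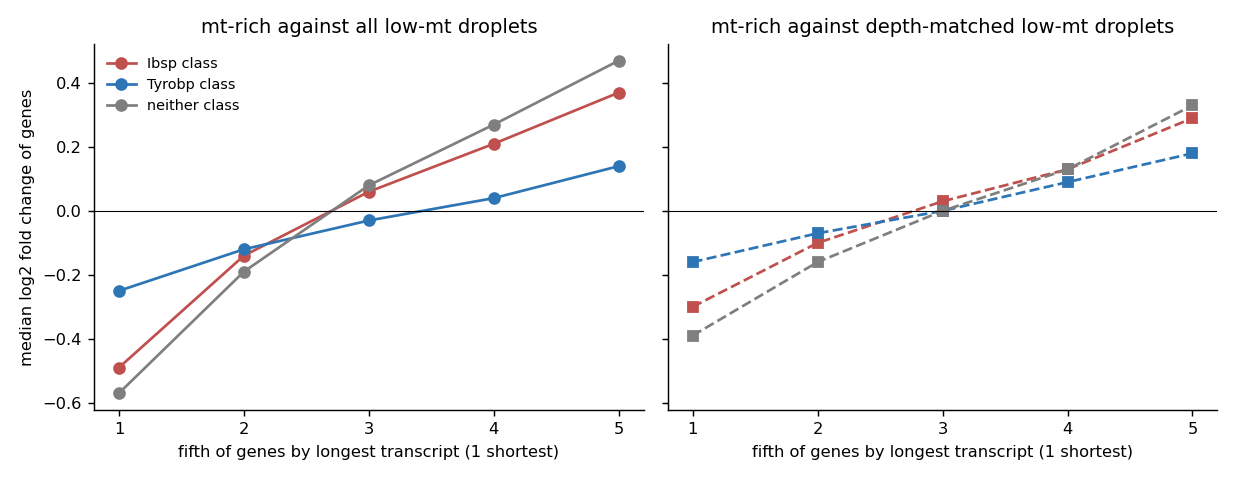
Median edgeR log2 fold change (TMM scale) of genes in 5 groups of transcript length, from shortest (1) to longest (5), for the 3 classes, against all low-mt droplets (left) and against depth-matched ones (right). In each class the shortest group has the lowest and the longest the highest median, from -0.57 to 0.47 in the neither class on the left.

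The members were also clustered among themselves on nuclear-encoded genes, as a description without tests. This gave 12 clusters, of which 6 could be named by at least 3 markers among their 10 leading genes. The largest, of 2018 droplets, was macrophage-like (C1qa, C1qc, C1qb, Lyz2), the next, of 1697, osteoblast-like (Bglap, Bglap2, Ifitm5), and both came from 16 of 16 pools. Of the macrophage-like droplets 506 were in the Tyrobp class and 1484 in neither, and of the osteoblast-like ones 850 were in the Ibsp class and 836 in neither. The neither class thus held droplets of both lineages that missed the limits on Ibsp and Tyrobp. Of 231 osteoclast-like droplets (Mmp9, Acp5, Ctsk, Dcstamp) 100 came from pool 1, and of 132 T and NK cell-like droplets 82 came from pool 8. The granulocyte-like cluster held 185 droplets and the monocyte and dendritic-like cluster 100. The osteoclast-like cluster was the deepest, with a median of 6508 nuclear-encoded UMIs, and had 6.34% of them in respiratory genes, against 1.06% to 5.02% in the other clusters.

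Among the unnamed clusters, 1 of 1270 droplets was led by the noncoding RNA 2700038G22Rik and by Rnf122, Thbs4 and Col22a1. Phex and Mepe, both on the list of osteocyte markers, and Neat1 were also among its 10 leading genes. This cluster had the highest median mt- share (22.6%), with 9.55% of nuclear-encoded UMIs in nuclear-retained RNAs and 8.01% in cytosolic ribosomal proteins. It drew 407 droplets from the Ibsp class and 858 from neither. Other unnamed clusters were led by Aspn, Timp3 and Postn (1582 droplets), by Limch1 and Mmp13 (966), by Igfbp3 and Cxcl12 (940), by the cell cycle genes Top2a and Cenpf (385), and by the fat cell genes Cfd, Retn and Cidec (56). Of the last 56, 51 were in the neither class.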

How the data were processed

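For each of 32 samples the authors deposited a matrix of counts, in which each value is the unnormalized number of UMIs of a gene in a barcode. Per the labels, reads were processed with Cell Ranger 5.0.0 on mm10, and the annotation release is not given in the sources used here. The files hold the called barcodes before the authors' own limits on mt- share. Values here come from the 16 samples of run HGYVNCCX2, with the repeat run as an alternative.

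The members and gene lists were chosen with earlier results of these data known. For each pool, class and group with at least 20 barcodes, counts of nuclear-encoded genes were summed and passed to edgeR 4.0.16 under R 4.3.3, using its quasi-likelihood test with pool as blocking factor, TMM scaling, the filterByExpr minimum and Benjamini-Hochberg adjustment. With pool as a block, p-values measure how the difference within a pool varied from pool to pool, and pools are mixtures of mice. Droplets of a pool shared mice and library: deviations of the same pool in the 2 groups correlated with medians of 0.263 (Ibsp), 0.209 (Tyrobp) and 0.491 (neither), where different pools had -0.016, -0.021 and -0.0339. Genes were named by 1 rule, namely the 10 highest and 10 lowest log2 fold changes among calls at 50 CPM or more that moved alike in at least 3 of 4 pools, up to 4 genes of largest change per list, and Malat1, Neat1, Col1a1, Actb and Ddit3. Depth matching drew 1 low-mt droplet per member from the same pool, class and bin of 0.25 log2 units of UMIs. The scripts were tested on simulated counts with 1 dispersion for all genes. In them 200 genes were changed by 1 log2 unit, equally up and down. The fits recovered 76% of them for Ibsp, 81% for Tyrobp, 94% for neither and 59.5% for the difference between classes. False calls made up 7.3%, 1.2%, 3.1% and 2.5% of all calls in the same order. The real fits called a far larger share of genes, a setting the simulation did not cover. These rates therefore do not describe the real calls. Class shares of droplets are described without the planned permutation test, since the classes belong to the rule. Clusters used scanpy 1.11.5 with 2000 variable genes, 15 components, 20 neighbours and resolution 0.5. Alternatives included RLE size factors, DESeq2 1.42.0, other limits and the repeat run. Coordinates came from GENCODE M21 (GRCm38) by gene identifier.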

Additional observations from a re-analysis of the deposited data

Results flagged for a closer look

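The mt-rich effect differed between the Ibsp and Tyrobp classes for 2431 genes by the edgeR interaction test. The genes described above that were among them are given here. Each value is the log2 difference, Ibsp minus Tyrobp, from 1 fit of both classes with its own count filter and scaling. It is therefore not the exact subtraction of the effects fitted by class. The median difference of all genes was 0.127 in this fit, 0.032 in the repeat run and 0.018 without pool 1, so small differences are uncertain. A negative difference was found for the respiratory genes Ndufb5 (-1.70), Cyc1 (-1.36), Atp5e (-1.28), Ndufa4 (-1.26) and Sdha (-1.03), and for Mgst3 (-1.83). Without osteoclast-marked droplets 428 genes were called in the difference, and Cyc1, Ndufa4 and Sdha did not rise in the Tyrobp class. In the fits by class the effects of Ibsp and Tyrobp were -1.27 and 0.56 for Ndufb5, and -0.43 and 1.05 for Cyc1.

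Genes of osteoclasts had negative differences, namely Ocstamp (-8.36), Calcr (-7.79), Mt3 (-5.32), Oscar (-4.76), Slc9b2 (-4.52), Itgb3 (-3.43), Mmp9 (-3.39) and Ppargc1b (-2.84), with Fosl2 at -1.31. Ocstamp, Calcr, Oscar, Slc9b2, Mmp9 and Ppargc1b did not pass the count filter in the Ibsp class alone, and Ltf below did not either. Their sizes rest on near-zero counts there and are not to be ranked, and those of Ocstamp and Calcr carry an SE of 1.96 and 2.36. Granulocyte genes differed the other way, with S100a9 at 4.91, Camp at 4.00 and Ltf at 3.86.

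The rRNA-like rows rose more in the Ibsp class, by 1.41 for Lars2, 1.36 for Gm42418, 0.92 for Gm26917 and 0.66 for AY036118, and so did Ogt (0.71) and Tnc (0.86). Col12a1 (0.77), Col1a1 (0.57) and Ddit3 (0.45) had a more positive effect in the Ibsp class, with effects of 0.23, -0.11 and -0.10 in the Tyrobp class. Rpl9 (-0.75), Rps15a (-0.65), Ubb (-0.52) and Hsp90ab1 (-0.40) had a more negative effect in the Ibsp class.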

How the results depend on the processing

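Against depth-matched droplets edgeR called 2123 genes in the Ibsp class, 958 in the Tyrobp class, 5860 in the neither class, 6373 over all droplets (9636 without matching) and 548 in the difference between classes, and these fits tested fewer genes. With members above 20% mt- UMIs 3673 genes were called in the Ibsp class, and the Tyrobp class and the difference could not be fitted, with under 3 pools. With at least 50 droplets per sum 1495 genes were called in the Tyrobp class and 837 in the difference. Without osteoclast-marked droplets, an alternative chosen after seeing the data, the counts were 1545 and 428. Applying the limits of 400 and 6200 to UMIs made 23.0% of barcodes members.

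Of 732 values of named genes under an alternative, 709 kept direction and side of the threshold, 18 lost the threshold and 5 reversed. These were AY036118 in the Ibsp class (-0.02) and C1qa in the neither class (-0.02) with depth matched, and Cyc1 (-0.41), Ndufa4 (-0.14) and Sdha (-0.04) in the Tyrobp class without osteoclast-marked droplets. The cause was not tested. Of the 18, 13 were Ddit3, and the others were Col1a1 in the Ibsp class above 20% mt- UMIs (0.11), Mmp9 (1.09) and Fosl2 (0.26) in the Tyrobp class without osteoclast-marked droplets, Hspa5 in that class with at least 50 droplets per sum (0.37) and Mrc1 in the neither class with depth matched (0.28). Without the pool as a block 4975 genes were called in the Ibsp class, 2271 in the Tyrobp class, 8133 in the neither class and 1854 in the difference, and Ddit3 lost its call in the Ibsp (0.32) and neither (0.18) classes, the only named gene to do so. The differences in class shares kept their direction in every alternative run. The osteoclast-marked share differed by 1.14 points without pool 1 and 1.26 points without pool 13, against 1.48 in all pools. Free RNA and doublets were not modelled, and genes under the count filter could not be tested at the depth of the members.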
